A study of Mus musculus with 20 samples.

Results

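Endothelin 1 is a short vasoactive peptide, and the genes examined here encode the 3 endothelin ligands (Edn1, Edn2, Edn3), their 2 receptors (Ednra, Ednrb) and the 2 endothelin converting enzymes (Ece1, Ece2). The members were the rows of both expression tables whose gene symbol equals one of these names, which gave 7 of the 21509 protein-coding genes listed. All 7 were found in both tables, each on 1 row.

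The libraries come from DC2 cells, an immortalized mouse line labelled as principal cells of the distal caput epididymis, so all 20 libraries are samples of 1 cell line. In the flow experiment, 6 libraries from cells under a flow giving 1 dyn/cm2 of shear stress over 3 h (flow) were set against 6 from cells kept without flow (static). In the siRNA experiment, 4 libraries from cells given Ift88 siRNA were set against 4 from cells given control siRNA. Ift88 codes for an intraflagellar transport protein needed to build the primary cilium. The study's methods place both siRNA groups under flow, and the sample labels do not state it. The labels of 1 library conflict, with a title that reads flow and a treatment entry that reads static. Its description and the name of its data column carry the flow mark FL, and the title was followed (flow replicate 6).

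Endothelins are made as long precursors. Furin-type proprotein convertases cut the precursor to big endothelin, and endothelin converting enzymes cut big endothelin to the active peptide. The peptide is bound by the type A receptor (Ednra) and the type B receptor (Ednrb), which couple to G proteins and raise intracellular calcium. Edn1 is best known from vascular endothelium, where its transcription responds to shear stress, and it is also made by many epithelia.

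Among the 7 genes, Edn1 was the one that rose under flow, by 3.10-fold in mean level. Ece1 and Ece2 were expressed and did not pass the test. The transcripts of both receptors and of the other ligands were at or near 0 TPM (a transcript level corrected for transcript length and set to the same sum in every library). After Ift88 siRNA, none of the 7 genes passed the test.

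Edn1 (ENSMUSG00000021367) lies on the plus strand at chr13:42301476-42307990 of GRCm38. Because it is the member whose level changed, the sequence around its start is shown, from RefSeq (GRCm38.p6). 5 short motifs were searched on both strands in the 250 bases before and 50 bases after the annotated start: the AP-1 motif TGANTCA, the AP-1 variant TGACTAA, the GATA motif AGATAA, the hypoxia response core ACGTG and the SMAD core CAGAC. No motif contains another. The first line is the 250 bases upstream of the start, chr13:42301226-42301475, plus strand, with the SMAD core in capitals on the plus strand and, read on the minus strand, as GTCTG.
Edn1 upstream: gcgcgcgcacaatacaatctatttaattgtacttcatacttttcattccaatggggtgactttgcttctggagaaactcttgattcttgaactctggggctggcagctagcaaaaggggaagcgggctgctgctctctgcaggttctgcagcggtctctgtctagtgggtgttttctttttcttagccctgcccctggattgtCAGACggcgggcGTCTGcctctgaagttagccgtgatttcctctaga
The second line is bases 16 to 45 after the annotated start, chr13:42301491-42301520, plus strand. The hypoxia response core (minus strand, read here as CACGT) and the AP-1 variant are in capitals.
Edn1 after the start: tggctgCACGTtgcctgtgggTGACTAAtc
The AP-1 variant stood at bases 37 to 43 after the start, and 2.35% of the 32851 promoter windows searched hold it. The GATA motif stood on the minus strand at bases 9 to 14, against 11.2% of windows. The hypoxia response core and the SMAD core are found in 19.6% and 49.6% of windows. TGANTCA, held by 7.81% of windows, was not among the letters of any member's window. Neither the AP-1 variant nor the GATA motif stood in a window of the other 6 members. These matches describe letters only.

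Flow was compared with static to ask which genes respond to shear stress. Edn1 stood at 8.95, 5.25, 6.59, 6.17, 4.60 and 6.08 TPM in flow replicates 1 to 6. In static replicates 1 to 6 it stood at 2.79, 2.22, 1.95, 2.27, 1.67 and 1.27 TPM. The lowest flow library was above the highest static library, so the groups did not overlap, as was the case for 0.492% of the genes tested in this direction and 0.0527% in the other. In bulk RNA, more Edn1 transcript per cell and more cells that express it cannot be told apart.

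The mean was 6.27 ± 1.49 TPM under flow (SD, n = 6) and 2.02 ± 0.525 TPM under static conditions (SD, n = 6). On the log2(TPM + 1) scale, which understates the change of a gene at this level, Edn1 was higher by 1.26 (SE 0.154, 95% interval 0.931 to 1.59, adjusted p = 0.00584, limma with Benjamini-Hochberg adjustment over 11388 genes). It was called higher, the rule being an adjusted p under 0.05 with over 1.5-fold change. An exact permutation test of Edn1 alone gave p = 0.00217 (two-sided, 0.00649 after adjustment over the 3 Edn1 tests), the smallest p that 6 libraries against 6 allow.

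**Figure D1:**
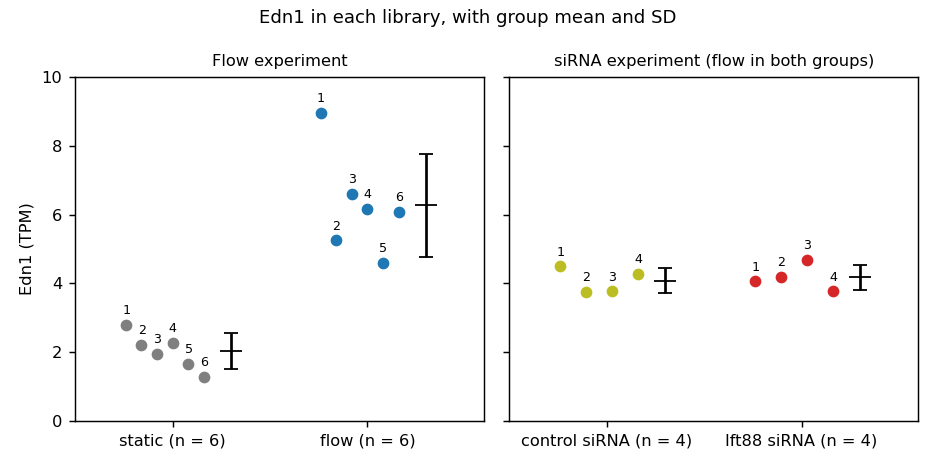
Edn1 level (TPM, linear axis from 0) in each library, labelled with its replicate number, with the group mean and SD as black bars. The 6 flow libraries lie between 4.60 and 8.95 TPM, above all 6 static libraries at 1.27 to 2.79 TPM, and the siRNA groups lie between 3.76 and 4.67 TPM and overlap.

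Same-numbered flow and static libraries deviated together, so they were also compared as pairs. Edn1 was higher under flow in 6 of 6 pairs, by 2.37-fold in pair 2 to 4.79-fold in pair 6. The sign flip test over pairs gave an exact permutation p of 0.0313, the smallest that 6 pairs allow, and 0.0469 after adjustment over the 3 Edn1 tests.

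Without flow replicate 6, the library with conflicting labels, the difference was 1.26 and Edn1 was still called (adjusted p = 0.0114, limma). With that library counted as static, as its treatment label has it, the difference was 1.09 (SE 0.239), Edn1 was not called, and 0 genes were called in all. Its Edn1 level of 6.08 TPM lies within the range of the other flow libraries, 4.60 to 8.95 TPM, and above all static libraries. As Edn1 is the gene compared here, this level cannot tell which label is right.

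The first principal component of the 12 libraries, with 34.4% of the variance, separated replicates 1 to 3 of both groups from replicates 4 to 6, a split that the labels do not explain. The Edn1 difference was 1.24 within replicates 1 to 3 (adjusted p = 0.142, limma, not called) and 1.28 within replicates 4 to 6 (adjusted p = 0.0467, limma, called). The difference between the sets was 0.04 (SE 0.285, 95% interval -0.58 to 0.66, limma interaction term), with an adjusted p of 1.00. The interval leaves room for unequal responses of up to 0.66 on the log2(TPM + 1) scale.

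In all, 12 genes were called higher under flow, 0.105% of the genes tested, and 0 were called lower. Of the 3 endothelin genes that passed the filter of a mean of at least 1 TPM, 1 was called higher and 0 lower. At an unadjusted p under 0.05, 2.05% of the genes tested were higher and 1.79% lower, and Edn1 was the single member among them. By size of change Edn1 was 10th of the 12 genes called, and by level it was the lowest, with a mean of 4.15 TPM over both groups. In this fit without pairs its adjusted p was the second smallest, after that of Ccn2, which encodes a matricellular growth factor. With a term for the replicate number (replicate block), 68 genes were called, and Edn1 and Ccn2 had the same adjusted p, 0.000599 (limma). Of the 12 genes called without the block, the 11 reported here all changed more within replicates 4 to 6 than within replicates 1 to 3. Edn1 had the smallest gap among them. For the other 10 genes the gap ran from 0.43 for Smad7 to 1.88 for Dusp5. With a pseudocount of 0.1 TPM in place of 1 TPM, the gap of Edn1 was 0.14 in place of 0.04. The genes were ranked with 1 TPM only. This ranking is a description made after the values were seen, and the interaction term was called for 0 of the 11388 genes (238 at an unadjusted p under 0.05, limma). It was called for 18 genes with the replicate block and for 34 without flow replicate 4, none of them an endothelin gene.

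**Figure D2:**
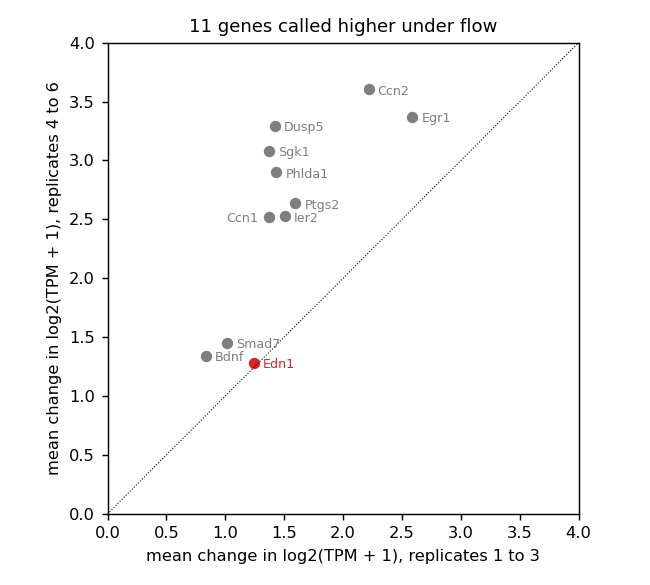
Mean change between flow and static in log2(TPM + 1) within replicates 1 to 3 (horizontal) and within replicates 4 to 6 (vertical) for 11 of the 12 genes called higher under flow, with the line of equal change dotted. Edn1, in red, lies on the line at 1.24 and 1.28, and the other 10 genes lie above it.

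Edn2, the intestinal and ovarian ligand (chr4:120161206-120167360), was listed at 0 TPM in all 20 libraries. Edn3, the ligand known for its part in neural crest development (chr2:174760619-174784042), was above 0 in 3 flow and 2 static libraries. Its highest level was 0.0879 TPM in flow replicate 2, and the other flow libraries lay at or under 0.0186 TPM. It was listed at 0 in all 8 siRNA libraries. The exact permutation test of Edn3 between flow and static gave p = 0.652, or 0.743 after adjustment over the 5 tests of members under the filter. Edn1 was the ligand transcript measured above 1 TPM in these cells.

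Ednrb, the type B receptor (chr14:103814625-103844402, minus strand), stood at 0.242, 0.141, 0.244, 0.0418, 0.247 and 0.151 TPM in flow replicates 1 to 6. The static replicates gave 0.182, 0.387, 0.117, 0.155, 0.358 and 0.171 TPM. The groups overlapped, with an exact permutation p of 0.390, or 0.743 after adjustment over the 5 tests. Ednra, the type A receptor (chr8:77663031-77724464, minus strand), was listed at 0 in 4 of 6 flow and 2 of 6 static libraries. Its highest level there was 0.0372 TPM, and the exact permutation test gave p = 0.578. The paper gives a mean read depth over its samples, but TPM holds no read total of a library. How many reads stand behind each such low value is therefore not known.

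Ece1, the membrane protease that makes mature endothelin 1 (chr4:137862237-137965229), was the most abundant member in every library. It stood at 14.8, 18.6, 14.4, 20.9, 23.8 and 22.9 TPM in flow replicates 1 to 6. Static replicates 1 to 6 stood at 20.4, 16.1, 17.7, 14.9, 29.7 and 23.0 TPM. The groups overlapped over most of their range, and the difference was -0.06 on the log2(TPM + 1) scale (SE 0.168, 95% interval -0.42 to 0.30, adjusted p = 0.998, limma). Within pairs, Ece1 ranged from 0.727-fold in pair 1 to 1.40-fold in pair 4.

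Ece2, a related protease best known from neural tissue (chr16:20629828-20646485), stood at 1.22, 1.45, 1.23, 1.21, 1.71 and 1.77 TPM in flow replicates 1 to 6. Static replicates 1 to 6 stood at 1.25, 0.926, 1.42, 1.43, 1.69 and 2.34 TPM. The difference was -0.03 (SE 0.141, 95% interval -0.33 to 0.27, adjusted p = 0.998, limma). Ece2 shares its locus and strand with a readthrough gene, Gm49333, over 16093 bases, so its reads can be split between them. Gm49333 was at or under 0.468 TPM in every library. On the log2(TPM + 1) scale, the 95% intervals of both converting enzymes end below the limit of 0.585 (log2 of 1.5) and above its negative. That scale understates a change at the level of Ece2, so its interval does not exclude a 1.5-fold fall in TPM.

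**Figure D3:**
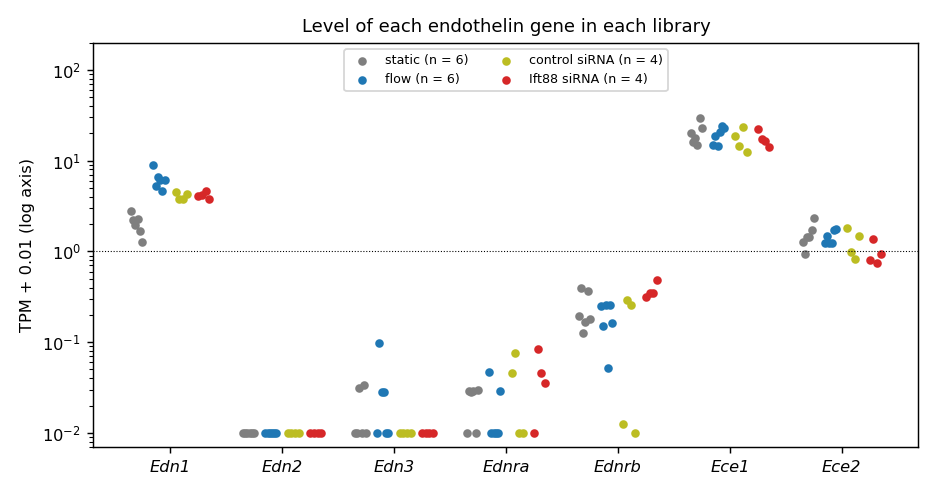
Level of each of the 7 genes in each library, as TPM + 0.01 on a log axis, coloured by group, with 1 TPM dotted. Values at the bottom edge of 0.01 are listed at 0 TPM, as for Edn2 throughout, and Edn1 is the member whose flow and static points separate.

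The order of levels was Ece1, Edn1, Ece2 and Ednrb in both groups of the flow experiment. Under flow, none of these neighbours overlapped in range. Under static conditions Edn1 and Ece2 overlapped, with Edn1 above Ece2 in 4 of 6 libraries, while in all 6 flow libraries Edn1 was above Ece2. The level of Ece1 divided by that of Edn1 had a median of 8.20 under static conditions (6.59 to 18.1) and of 3.46 under flow (1.66 to 5.18). The groups did not overlap in this ratio, which follows from the values of Edn1 given above.

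Ift88 siRNA was compared with control siRNA to ask which genes differ under flow when cilium formation is impaired. The siRNA experiment holds no static group, so whether the flow response of a gene depends on the cilium was not tested. The paper reports fewer ciliated cells and shorter cilia after the silencing, with some cells still ciliated. The targeted gene stood at 1.71, 1.27, 1.28 and 0.917 TPM in the Ift88 siRNA libraries and at 4.21, 4.08, 4.15 and 4.12 TPM in the control libraries. It was called lower, with a ratio of means of 0.313 (-1.17 on the log2(TPM + 1) scale, adjusted p = 0.00212, limma).

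Edn1 stood at 4.06, 4.19, 4.67 and 3.77 TPM in Ift88 siRNA replicates 1 to 4. In control siRNA replicates 1 to 4 it stood at 4.49, 3.76, 3.77 and 4.28 TPM. The groups overlapped almost fully, with means of 4.17 ± 0.378 and 4.08 ± 0.369 TPM (SD, n = 4 each). The difference was 0.03 (SE 0.117, 95% interval -0.23 to 0.28, adjusted p = 0.945, limma), so the interval holds no change of 1.5-fold in either direction on this scale. The exact permutation test gave p = 0.686. The 8 siRNA libraries, at 3.76 to 4.67 TPM, stand beside 4.60 to 8.95 TPM in the flow and 1.27 to 2.79 TPM in the static libraries of the other experiment. The tables were made separately, and no test was run between them.

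Ece1 stood at 22.3, 17.5, 16.3 and 14.2 TPM after Ift88 siRNA and at 18.6, 14.5, 23.2 and 12.3 TPM after control siRNA. The difference was 0.05 (SE 0.175, 95% interval -0.33 to 0.43, adjusted p = 0.927, limma). Ece2 stood at 0.804, 1.35, 0.742 and 0.927 TPM after Ift88 siRNA and at 1.83, 0.987, 0.817 and 1.46 TPM after control siRNA. The groups overlapped, and the difference was -0.20 (SE 0.173, 95% interval -0.58 to 0.17, adjusted p = 0.639, limma). This Ece2 difference ran from -0.30 to -0.09 with a library left out and was -0.35 with a pseudocount of 0.1 TPM, uncalled each time. Of the 3 members tested, 0 were called in either direction, against 0.152% of 11209 genes for a rise and 0.0714% for a fall. No member passed at an unadjusted p under 0.05 in this limma fit.

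Ednrb was the member whose siRNA groups did not overlap. It stood at 0.306, 0.335, 0.338 and 0.478 TPM in the Ift88 siRNA libraries and at 0.00256, 0.278, 0.245 and 0 TPM in the control libraries. The difference of 0.28 on the log2(TPM + 1) scale had an exact permutation p of 0.0286, the smallest that 4 libraries against 4 allow, and 0.143 after adjustment over the 5 tests, so it did not pass. The size depends on the pseudocount: with 0.1 TPM in place of 1 TPM the difference was 1.27, with the same p. Among genes above 0 and under the filter, 2.24% had Ift88 siRNA libraries all above the controls and 0.501% all below. The number of genes above 0 was 15713 to 16682 in the Ift88 siRNA libraries and 15292 to 15382 in the controls, and its part in the Ednrb values was not tested. Ednra was listed at 0 in 1 of 4 Ift88 siRNA and 2 of 4 control libraries, with a highest level of 0.0739 TPM and an exact permutation p of 0.743.

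**Figure D4:**
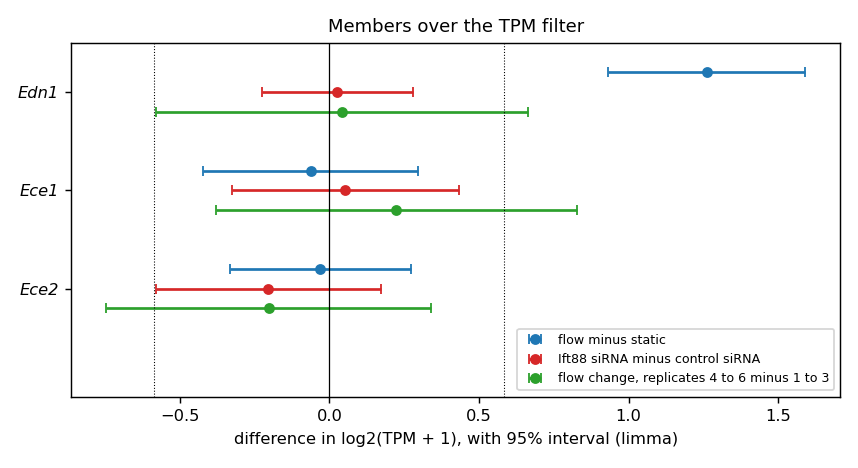
Difference in log2(TPM + 1) with its 95% interval (limma) for the 3 members over the filter, for flow minus static (n = 6 each), Ift88 siRNA minus control siRNA (n = 4 each) and the flow change of replicates 4 to 6 minus that of replicates 1 to 3, with 1.5-fold dotted on both sides. The flow difference of Edn1, 1.26, is the one whose interval stays clear of 0.

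The genes around the endothelin pathway were counted from lists of their known roles. Of 8 genes that cut endothelin precursors, 3 were tested under flow and none was called (0 at an unadjusted p under 0.05). Furin, the convertase that cuts the precursor, stood at 49.5 ± 2.51 TPM under flow and 47.6 ± 5.64 TPM under static conditions (SD, n = 6 each). Of 3 peptidases that remove endothelin, 2 were tested and none was called. Ctsa, a lysosomal carboxypeptidase, stood at 188 ± 33.2 and 207 ± 53.3 TPM, and Mme, neprilysin, at 4.58 ± 1.96 and 4.60 ± 1.95 TPM. After Ift88 siRNA, 2 precursor-cutting and 2 removing genes were tested and none was called (0 at an unadjusted p under 0.05, limma).

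Of 27 genes of receptor signalling (G protein alpha subunits, phospholipases C, calcium release channels, protein kinases C, arrestins, receptor kinases and their regulators), 24 were tested under flow, 7 with a positive and 17 with a negative difference. None was called (1 at an unadjusted p under 0.05), and the median of -0.05 compares with -0.03 over all genes tested. The most abundant were Gnas, at 627 ± 26.7 TPM under flow, and Gnai2, at 334 ± 41.7 TPM. Both receptor transcripts were at or under 0.478 TPM in the same cells. After Ift88 siRNA, 24 of the 27 were tested and none was called (2 at an unadjusted p under 0.05), with Rgs2, which speeds the turn-off of Gq, at the low end, -0.66.

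Of 16 genes for transcription factors known to act on Edn1, 15 were tested under flow and 0 were called without the pairs (5 at an unadjusted p under 0.05, limma). At that threshold 2.05% of all genes tested were higher and 1.79% lower. Of the 15, 11 had a positive and 4 a negative difference, with Gata2 at the low end, -0.30. With the replicate block, 2 were called higher, against 0.597% of all genes. These were Jun, an AP-1 subunit, and Fos, its partner. Jun stood at 69.2 ± 21.4 TPM under flow and 34.7 ± 5.70 TPM under static conditions, a difference of 0.93 (adjusted p = 0.0714 without and 0.00332 with the block, limma). Fos stood at 18.1 ± 20.6 and 1.78 ± 1.84 TPM, a difference of 2.13 with an SD as large as its mean (adjusted p = 0.800 without and 0.0292 with the block, limma). The block left Edn1 called, with an adjusted p of 0.000599 (limma). Rela, a subunit of NF-kB, was the most abundant of the list at 145 ± 19.3 TPM under flow and 127 ± 6.64 TPM under static conditions. Smad4, Smad2 and Nr3c1, the glucocorticoid receptor, were expressed at 61.4 to 79.8 TPM in group means with differences of -0.05, 0.04 and 0.03. After Ift88 siRNA, all 16 were tested and none was called. An unadjusted p under 0.05 (limma) was found for 3 of the 16, against 9.02% of all genes tested with a positive and 4.91% with a negative difference. Fos had the highest difference, at 11.3 ± 0.948 TPM after Ift88 siRNA and 7.37 ± 0.775 TPM after control siRNA (SD, n = 4 each). Its difference of 0.56 on the log2(TPM + 1) scale passed the p threshold (adjusted p = 0.0480, limma) and missed the limit of 0.585. The group means differ by over 1.5-fold in TPM, and the added 1 TPM brings the difference under that limit. The paper reports Fos among the genes changed by both flow and Ift88 silencing.

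Of 28 genes of other vasoactive systems (adrenomedullin, natriuretic peptides, angiotensin, bradykinin, nitric oxide), 9 were tested under flow. None was called without the pairs (1 at an unadjusted p under 0.05, limma). With the block Nppb, the B-type natriuretic peptide, was called, at 2.50 ± 1.8 TPM under flow and 0.610 ± 0.408 TPM under static conditions, a difference of 1.02 (adjusted p = 0.362 without and 0.0291 with the block, limma). After Ift88 siRNA, all 6 genes tested had a positive difference, with a median of 0.40 against 0.02 over all genes tested. None was called, and 5 had an unadjusted p under 0.05 (limma), against the same shares of all genes. Agt, angiotensinogen, stood at 12.7 ± 2.13 TPM after Ift88 siRNA and 6.95 ± 2.14 TPM after control siRNA (SD, n = 4 each), a difference of 0.80 (adjusted p = 0.0648, limma).

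**Figure D5:**
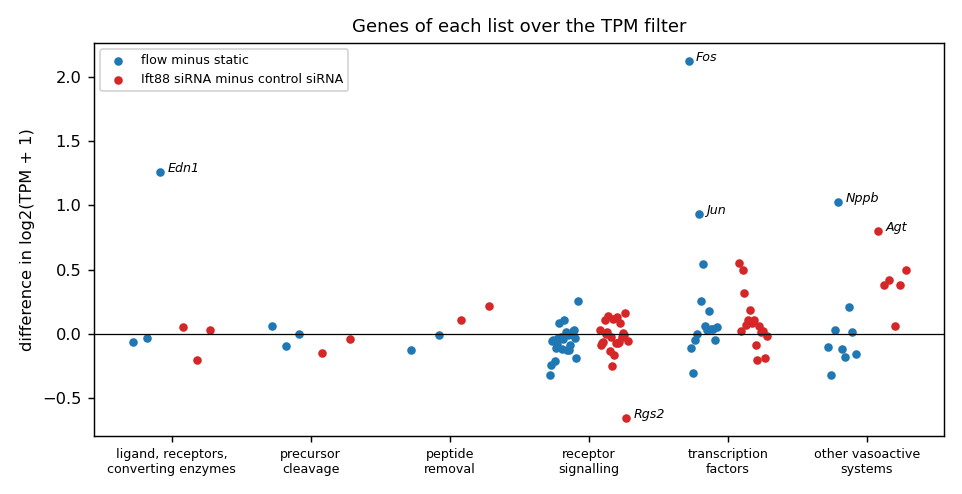
Difference in log2(TPM + 1) of each gene over the filter, by list, for flow minus static (blue) and Ift88 siRNA minus control siRNA (red), 1 point a gene, with genes beyond 1.5-fold named. Edn1 at 1.26 is the one named point that was called without the replicate block.

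The 3 genes whose levels followed Edn1 most closely over the 12 flow and static libraries were Ccn2 (Pearson r = 0.928), Bdnf (0.912) and Cdc42ep3 (0.889), out of 11381 genes. These are correlations across libraries of both groups and hold the group difference itself. Ece1 and Ece2 had r of -0.319 and -0.332 with Edn1. Over the 8 siRNA libraries the leading genes were others, Cdkn2aip (0.977), Sec31b (0.950), Pbk (0.941), Sult2a8 (0.938) and Dxo (0.929). These rest on 8 libraries, 11203 genes and a range of Edn1 of 3.76 to 4.67 TPM.

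The markers of the labelled cell type were nearly absent. 7 markers of principal cells summed to 0.134 to 0.451 TPM per library in the flow experiment and 0.0494 to 1.32 TPM in the siRNA experiment, with Crisp1 at 0 in all libraries. Of 7 epithelial markers, 2 reached a mean of 1 TPM in the flow experiment. As Edn1 is known from endothelium, 9 endothelial markers were examined. They summed to 8.78 to 16.6 TPM under flow and 12.3 to 17.0 TPM under static conditions, and 1 of 9 reached a mean of 1 TPM. That gene, Egfl7, made up most of the sum, with means of 10.8 TPM under flow and 13.1 TPM under static conditions. The means of Kdr (0.318 and 0.246 TPM), Vwf (0.278 and 0.239 TPM) and Esam (0.915 and 0.829 TPM) were higher under flow, with overlapping groups, and those of Pecam1, Cdh5 and Tek were lower. Emcn was at 0 in all libraries and Tie1 in those of the flow experiment. The filter left 0 of 5 clear cell markers to test under flow, 2 of 5 for basal cells, 3 of 6 for smooth muscle and 1 of 6 each for fibroblasts and immune cells, and none of those tested was called. The part of any of these cell types in the Edn1 values was not tested.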

How the data were processed

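RNA sequencing of DC2 cells gave 1 table per experiment. The authors deposited TPM for 21509 protein-coding genes, 78 of them without a symbol, summing to 1000000 in each library. The submitters' processing notes name fastp 0.20.0, FastQC 0.11.8, MultiQC 1.8 and kallisto 0.46.2, while the paper's methods name Trimmomatic, kallisto and tximport. TPM keeps no read depth, so counting error is unknown and no count test was run. Libraries were made with a directional kit, but whether counting used strand is not given in the sources used here. Edn1, Ece1 and Ednra overlap annotated genes on the opposite strand.

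From the deposited TPM, genes whose mean reached 1 TPM were compared on the log2(TPM + 1) scale with limma 3.58.1 in R 4.3.3 (trend, Benjamini-Hochberg). Calls needed an adjusted p under 0.05 and more than 1.5-fold on that scale. Members under the filter had two-sided exact permutation tests (scipy 1.17.1). Figures used matplotlib 3.10.9. The procedure was tested on simulated data. No 2 libraries held identical values, and nothing in the labels says that replicates came from separate cultures, so p-values measure only the spread between these libraries.

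The deviations of same-numbered flow and static libraries from their group means correlated at 0.294, 0.463, 0.425, 0.468, 0.662 and 0.600 (replicates 1 to 6), and same-numbered libraries were treated as pairs on this ground. The labels name no pairing.

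Named were the 7 members, and from each list the genes called plus up to 4 of the highest level, and the 5 genes most correlated with Edn1 in each experiment, of which some are not reported here. Genes called with the block or at the end of a list's range were named after their values were seen. Members and lists were chosen with earlier results of these data known. Alternatives varied the filter, pseudocount, scaling, library weights, block, the group of 1 library, the replicate sets and each library left out.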

Additional observations from a re-analysis of the deposited data

Results flagged for a closer look

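Edn3 in flow replicate 2, at 0.0879 TPM, stood apart from the other 5 flow libraries, which lay between 0 and 0.0186 TPM (gap of 0.789 of the group's range). It was 1 of 22 groups of values examined for a library far from the others, a check that marks about 1 group in 20 by chance.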

How the results depend on the processing

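Edn1 was called higher under flow in each of 12 fits that left out a library (differences 1.17 to 1.33). It was not called with flow replicate 6 counted as static (1.09) or within replicates 1 to 3 (1.24), so 0 members were called there, and also 0 with a filter of 5 TPM, which Edn1 does not reach. All genes called higher under flow numbered 2 without a filter, 28 with median-of-ratios scaling, 75 with library weights (11 lower), 0 with replicate 6 as static, 3 within replicates 1 to 3, 51 within replicates 4 to 6, and 5 (without flow replicate 4) to 76 (without flow replicate 2) with a library left out (0 to 11 lower). With the replicate block they numbered 68, and the block changed no call of a member in either experiment. After Ift88 siRNA, the calls numbered 3 higher and 3 lower without a filter, 11 higher with a filter of 5 TPM, 35 and 13 with weights, and 4 to 14 and 4 to 9 with a library left out.

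The siRNA replicate numbers did not pair the libraries (correlations 0.0464, 0.00276, 0.259 and 0.176). The block moved those calls to 32 higher and 12 lower, Agt among the former (adjusted p = 0.0247, limma).

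Differences that turned direction were all uncalled. Ece1 under flow was 0.0040 with weights and 0.0502 within replicates 4 to 6, and -0.1381 to 0.0513 with a library left out. Ece2 was 0.0022 with weights, 0.0701 within replicates 1 to 3, and -0.1032 to 0.0559. After siRNA, Edn1 ran from -0.0184 to 0.0657 and Ece1 from -0.0838 to 0.2043. The difference between replicate sets ran from -0.1165 to 0.2188 for Edn1 and -0.0320 to 0.4416 for Ece1. Causes were not tested.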
